A study of Gallus gallus with 2 samples.

Results

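Ephrins, semaphorins, netrins, Slits and their receptors are the cues and sensors that steer moving cells and growing axons. A total of 51 such genes were read from the table of all loci, out of 12126 gene symbols with 1 value each. They were taken by name alone: Eph receptors, ephrins, semaphorins, plexins, Slits, Robo receptors, netrins, their receptors *NEO1* and *UNC5*, and *CXADR*. For a symbol found at several loci, the most abundant locus stands for it. RNA came from back skin of female Lueyang chickens at 16 weeks of age. One library was of white skin (WS) and another was of black skin (BS), and each held mRNA pooled from 3 birds of the 5 sampled per color. With 1 pooled library per color there is no spread between birds, so no test was possible, and every difference below compares these 2 libraries and not the skin colors.

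In the avian embryo, pigment cells arise from the neural crest and travel to the skin by a path under the ectoderm. Ephrin-B ligands and EphB receptors, Slits and Robo receptors, and class 3 semaphorins with neuropilins are known from chick and mouse embryos to open or close such paths. Ephrins stay on the membrane of the signaling cell and act on Eph receptors of a touching cell. Class 3 semaphorins and netrin-1 are secreted, and the same families later act in blood vessels, nerves and epithelia. The skin here was taken long after that migration.

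Expression is given as FPKM, which is scaled to the length of each exon model, so levels can be compared between genes, though only roughly. Whether each deposited model is complete was not examined. Of the genes that reached 1 FPKM, 8 overlap another expressed locus. Of the 51 genes, 40 had at least 1 FPKM in the higher library, and all 40 also had at least 1 FPKM in the other. *EPHA8*, *EPHA10*, *ROBO2*, *ROBO3*, *UNC5A* and *UNC5C* were above 0 but below 1 FPKM in both libraries. The remaining 5 were listed at 0 in WS and in BS. Of these, *EFNA5*, *SEMA4D* and *SEMA6A* lie on chromosome Z and *SEMA3B* on unplaced sequence, where all loci of the table are at 0. *EPHA6* was listed at 0 on chromosome 1, where other loci were above 0. A 0 on chromosome Z or on unplaced sequence is therefore a listed value and does not show that the transcript was absent.

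**Figure D1:**
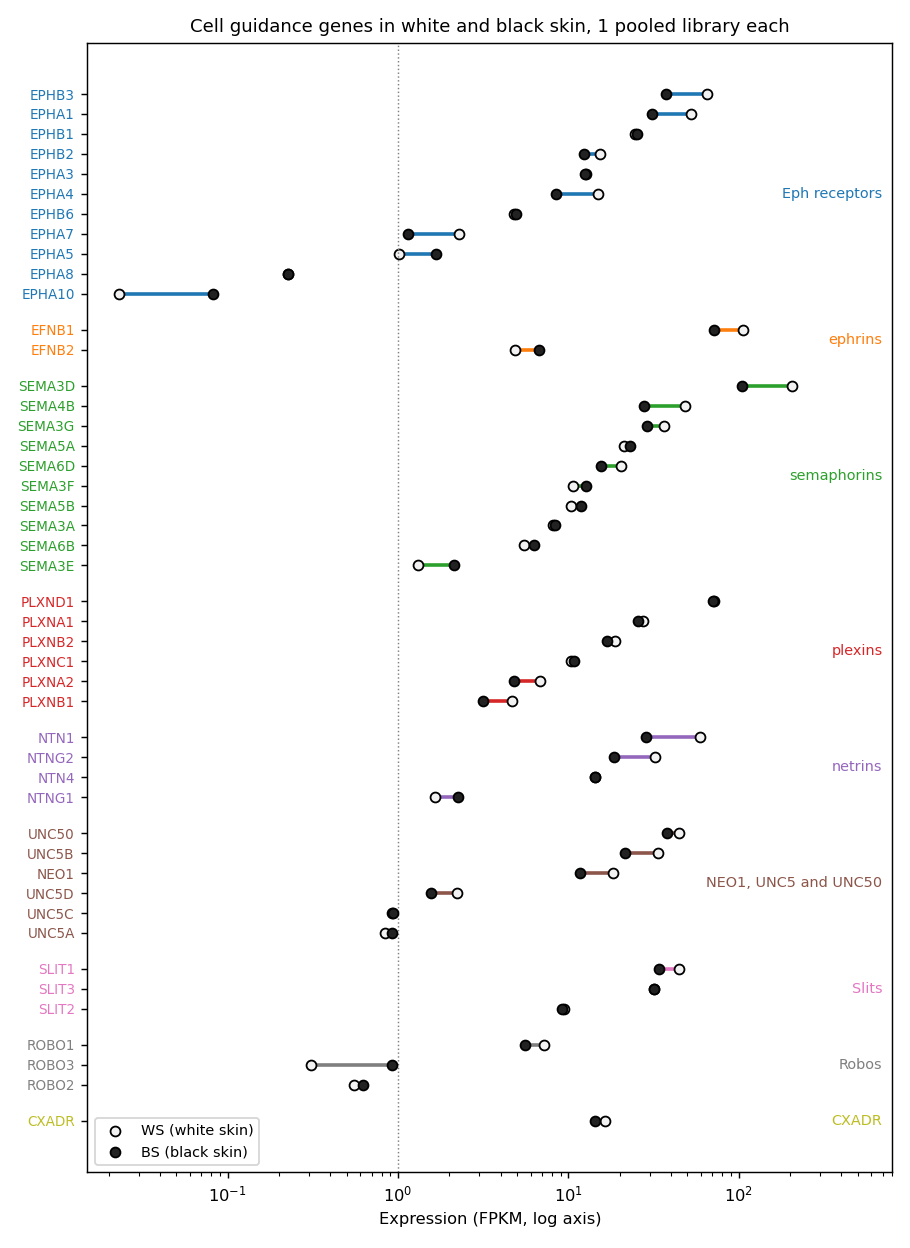
Expression of the 46 guidance genes above 0, in FPKM on a log axis, grouped by family in color, with an open point for WS, a filled point for BS and a line joining them (a dotted line marks 1 FPKM). *SEMA3D*, *EFNB1* and *PLXND1* are the highest in both libraries, and the longest lines above 10 FPKM have the filled point on the left.

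The guidance genes that differed most were lower in black skin. Fold changes were computed as log2((BS + 1)/(WS + 1)), a measure that makes changes of scarce genes look smaller. By this measure, 10 of the 40 genes (25%) were at least 1.5-fold lower in BS, while 8.07% of all gene symbols that passed the same filter were. None of the 40 was at least 1.5-fold higher, while 8.44% of all gene symbols were. As a plain ratio without the pseudocount, 2 of them were, the scarce *EPHA5* and *SEMA3E*. With the pseudocount, only *NTN1* was at least 2-fold lower, which is 2.5% of the 40 beside 2.22% of all symbols. As a plain ratio the scarce *EPHA7* was also just past 2-fold lower (2.01). None was 2-fold higher, beside 2.6% of all symbols. The median of the 40 was -0.20, and that of all 9372 symbols was -0.04. With the libraries scaled to equal totals apart from the 50 most abundant loci, 43 guidance genes passed the filter. Of these, 7 were 1.5-fold lower, beside 528 of 9411 symbols, and 1 was higher, beside 1133 of 9411. The higher gene was *ROBO3*, which then entered the filter. With this scaling *NTN1* was short of 2-fold (-0.89), and the medians were -0.02 for the guidance genes and 0.09 for all symbols.

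The 10 lower genes were *NTN1*, *SEMA3D*, *EPHB3*, *SEMA4B*, *NTNG2*, *EPHA4*, *EPHA1*, *EPHA7*, *UNC5B* and *NEO1*. They made up 47.0% of the summed FPKM of all 51 genes in WS and 35.4% in BS. Most were abundant: 9 of the 27 guidance genes with 10 FPKM or more in the higher library were among them (33.3%, beside 9.26% of all symbols at that level), and 1 of the 13 below it (7.69%, beside 5.79%). *EPHA4* reached 10 FPKM only in WS, which fixed its direction in that count. The pseudocount also makes changes in the scarcer group look smaller. Of the 10, only *EPHA1* lies in a locus that overlaps other expressed loci, those of *PEX5* and *ZYX*, so reads may have been shared there.

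**Figure D2:**
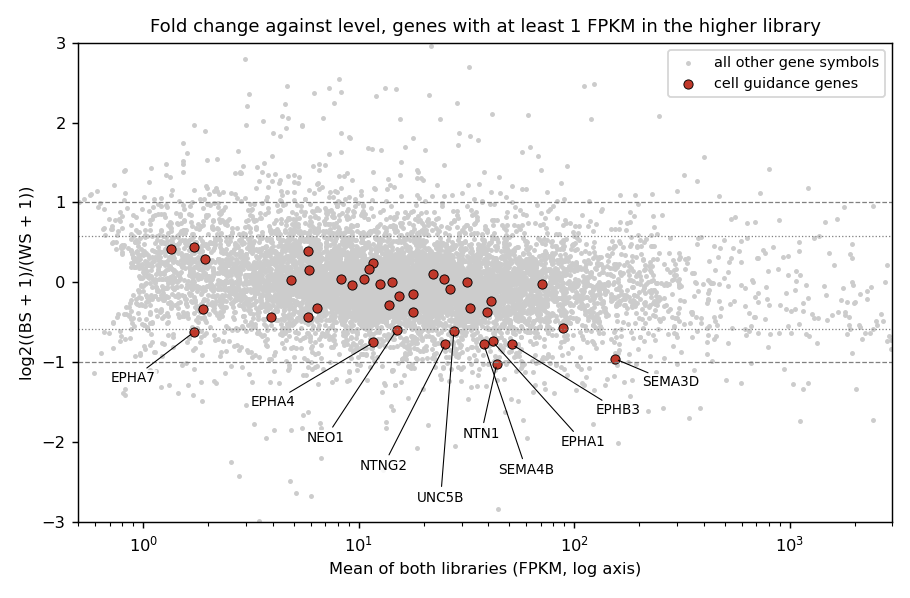
Log2 fold change (BS over WS, pseudocount of 1) against the mean of both libraries in FPKM on a log axis, for all gene symbols that reached 1 FPKM in the higher library (gray; 81 lie outside the axes) and the 40 guidance genes (red). Dotted and dashed lines mark 1.5-fold and 2-fold, and the 10 named genes all lie at or below the lower dotted line.

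Markers of cell types differed between the libraries at the same time. For comparison, 5120 of all 9372 symbols were lower in BS by any margin and 4252 were higher (8.07% and 8.44% by at least 1.5-fold). Of 16 keratinocyte markers with at least 1 FPKM, 16 were lower in BS in the deposited FPKM and 11 of them by at least 1.5-fold (*ITGA6* by the least, -0.13, a margin that the scaling to equal totals removes), with a median of -0.82. Their summed level was 3759 FPKM in WS against 2203 in BS, and *KRT5* and *KRT75* were listed at 0. Of 11 melanocyte markers, 11 were higher in BS and 8 of them by at least 2-fold (beside 2.6% of all symbols). Their summed level was 46.2 FPKM in WS against 163.6 in BS. Among them *TYR*, *GPR143* and *RAB38* were below 1 FPKM in WS and passed the filter only through BS, which fixed their direction. *TYRP1*, *PMEL*, *MLANA* and *SLC45A2* were listed at 0 in both. All of these but *PMEL* lie on chromosome Z, so their 0 does not show that the transcript was absent. *PMEL* lies on the same sequence as *KRT5* and *KRT75*. Endothelial markers summed to 258 FPKM in WS against 331 in BS (11 of 12 higher, 2 by at least 1.5-fold), and nerve and Schwann cell markers to 345 FPKM and 491 FPKM (7 of 10 higher, 3 by at least 1.5-fold). Of 11 skeletal muscle markers 8 were at least 1.5-fold higher in BS, as were 3 of 6 smooth muscle markers and 2 of 9 leukocyte markers (1 lower). Of 8 fibroblast markers 2 were at least 1.5-fold lower, but 4 were higher by any margin and the median was -0.006. Of 6 red blood cell markers 3 were at least 1.5-fold lower, with a median of -0.58. The endothelial *PROX1* and the muscle gene *PVALB* also passed the filter only through BS, and the red cell genes *EPB42* and *RHAG* only through WS. The part of these cell types in the guidance genes was not tested, and in whole skin fewer cells of a type and less RNA per cell cannot be told apart.

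Among the Eph receptors, the largest receptor tyrosine kinase family, 4 of the 9 above 1 FPKM were lower in BS by 1.5-fold or more. This is 44.4%, beside 8.07% of all symbols. With the pseudocount of 1 none of the 9 exceeded that margin in favor of BS, beside 8.44% of all symbols. *EPHB3*, a receptor of B-type ephrins, was the most abundant, at 65.1 FPKM in WS against 37.6 in BS (log2 fold change -0.78). *EPHA1*, the founding member of the family, stood at 52.5 FPKM in WS against 31.1 in BS (-0.74). These were the most abundant Eph receptors in both libraries. *EPHA4*, which binds ephrins of both types, was at 14.9 FPKM in WS against 8.48 in BS (-0.75). *EPHA7* was much scarcer, at 2.30 FPKM and 1.14 FPKM (-0.62), so its ratio rests on low values.

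The other Eph receptors above 1 FPKM, apart from *EPHA5*, were closer between the libraries. *EPHB1*, another receptor of B-type ephrins, was at 24.6 FPKM in WS against 25.3 in BS, and *EPHA3* at 12.6 FPKM and 12.5 FPKM. The locus of *EPHB1* overlaps 2 expressed loci without a name, so reads may have been shared there. *EPHB2* was at 15.3 FPKM in WS against 12.4 in BS. *EPHB6*, whose kinase domain is inactive in mammals, was at 4.77 FPKM and 4.91 FPKM. *EPHA5* had the largest difference in favor of BS among the Eph receptors above 1 FPKM, at 1.01 FPKM in WS against 1.68 in BS (0.42). The summed FPKM of Eph receptors was 193.4 in WS against 135.4 in BS. Of this sum *EPHB3* held 33.7% in WS and 27.8% in BS, and *EPHB1* held 12.7% and 18.7%. The share of *EPHB2* was also larger in BS (7.90% in WS, 9.12% in BS), although its FPKM was lower there. These shares within a library do not depend on how the libraries are scaled.

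The ephrin ligands were represented by *EFNB1* and *EFNB2*, both membrane-spanning ligands of EphB receptors. *EFNB1* was the second most abundant guidance gene in each library, at 106.4 FPKM in WS against 71.5 in BS. Its log2 fold change of -0.57 was just short of 1.5-fold, and its locus, as deposited, overlaps that of *FAM155B*. *EFNB2*, known from arteries and lymphatic vessels, was at 4.87 FPKM in WS against 6.74 in BS (0.40). *EFNB1* made up 95.6% of the FPKM of the pair in WS and 91.4% in BS.

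*SEMA3D*, a secreted class 3 semaphorin, was the most abundant guidance gene in both libraries. It stood at 204.5 FPKM in WS against 104.9 in BS, a log2 fold change of -0.96, just short of 2-fold. In the deposited table it is locus XLOC_000071 on chromosome 1 from 8884475 to 9046946. The build of all coordinates here is unsettled, since galGal4 appears in the submitters' notes on processing and another reference file in the methods. It made up 55.8% of the FPKM of all semaphorins in WS and 43.4% in BS.

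The class 3 semaphorins next to it on chromosome 1 did not share this difference. *SEMA3A*, whose locus starts at 9427237, is a repellent of axons and neural crest cells, and was at 8.11 FPKM in WS against 8.40 in BS (0.04). *SEMA3E*, a ligand of plexin D1 whose locus starts at 10137371, was at 1.31 FPKM in WS against 2.14 in BS (0.44). *SEMA3C*, which lies further along in a locus merged with an unnamed gene and is not among the 51, was at 29.5 FPKM in WS against 31.0 in BS.

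Of the 10 semaphorins above 1 FPKM, 2 were lower in BS by 1.5-fold or more (20%, beside 8.07% of all symbols). By any margin 4 of the 10 were lower (40%, beside 54.6% of all symbols) and 6 were higher. The other lower one was *SEMA4B*, a membrane-bound semaphorin, at 48.3 FPKM in WS against 27.8 in BS (-0.77). *SEMA3G*, known from blood vessels, was at 36.5 FPKM and 29.2 FPKM, and *SEMA6D*, a ligand of plexin A1, at 20.3 FPKM and 15.5 FPKM. The transmembrane semaphorins *SEMA5A* (21.2 FPKM in WS, 23.0 FPKM in BS), *SEMA5B* (10.4 FPKM and 11.8 FPKM) and *SEMA6B* (5.49 FPKM and 6.25 FPKM) were slightly higher in BS, with log2 fold changes of 0.11, 0.16 and 0.16. The locus named *SEMA3F* was at 10.6 FPKM in WS against 12.7 in BS. It lies on chromosome 6, whereas the RefSeq annotation of GRCg7b has *SEMA3F* on chromosome 12 and *SEMA4G* beside *SFXN3*, *PDZD7* and *LZTS2*, which flank the deposited locus. Its name is therefore uncertain.

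The plexins are the signaling receptors of semaphorins. None of the 6 was 1.5-fold apart. By that margin 8.07% of all symbols were lower in BS and 8.44% higher, and none among 6 genes is near those shares. *PLXND1*, the receptor of semaphorin 3E in endothelium, was the third most abundant guidance gene, at 71.3 FPKM in WS against 70.5 in BS. *PLXNA1*, a partner of neuropilins, was at 27.5 FPKM and 25.8 FPKM, and *PLXNB2*, a receptor of class 4 semaphorins, at 18.8 FPKM and 16.9 FPKM. *PLXNC1*, the receptor of semaphorin 7A that is known from human melanocytes, was at 10.4 FPKM in WS against 10.7 in BS. *PLXNA2* (6.79 FPKM and 4.79 FPKM) and the locus named *PLXNB1* (4.64 FPKM and 3.17 FPKM) were lower in BS by less than 1.5-fold. The RefSeq annotation gives *PLXNB1* as a synonym of *PLXNB3*.

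*NTN1*, netrin-1, the secreted cue that attracts or repels axons depending on the receptor, stood at 58.9 FPKM in WS against 28.6 in BS (-1.02). This is locus XLOC_007074 on chromosome 18 from 2029648 to 2040448. A locus on chromosome 14 carries the same symbol, at 11.8 FPKM in WS against 10.998 in BS, and the RefSeq annotation lists *NTN1* there as a synonym of *NTN3*. Where the 2 loci are added up, *NTN1* is no longer 2-fold apart (log2 fold change -0.82) and differs less than *SEMA3D* (-0.96).

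The other netrins differed less evenly. *NTNG2*, a membrane-anchored netrin of the G type, was at 32.1 FPKM in WS against 18.4 in BS (-0.77). Its relative *NTNG1* was at 1.64 FPKM and 2.25 FPKM (0.30). *NTN4*, which binds laminins in basement membranes, was at 14.3 FPKM in both libraries.

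Of the netrin receptors *NEO1* and *UNC5*, 3 were above 1 FPKM. All 3 were lower in BS by any margin, beside 54.6% of all symbols, and 2 by 1.5-fold or more, beside 8.07%. *UNC5B*, a repulsive netrin receptor also known from endothelium, was at 33.6 FPKM in WS against 21.7 in BS (-0.61). *NEO1*, neogenin, was at 18.3 FPKM and 11.7 FPKM (-0.60), just past 1.5-fold. *UNC5D*, at 2.22 FPKM and 1.55 FPKM, was within 1.5-fold, while *UNC5A* (0.841 FPKM and 0.927 FPKM) and *UNC5C* (0.922 FPKM and 0.938 FPKM) were below the filter. The calls of *UNC5B*, *NEO1* and *EPHA7* at 1.5-fold did not hold under every scaling of the libraries. With *UNC50* left aside, the netrin receptors summed to 55.9 FPKM in WS against 36.8 in BS, and the netrins to 107.0 FPKM and 63.5 FPKM. *UNC50* was caught by its name, at 44.7 FPKM and 37.9 FPKM, and is no netrin receptor: it is known from *Caenorhabditis elegans* as a membrane protein needed to bring acetylcholine receptors to the surface. Without it, 10 of 39 genes were 1.5-fold lower in BS in the deposited FPKM (25.6%, beside 8.07% of all symbols).

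**Figure D3:**
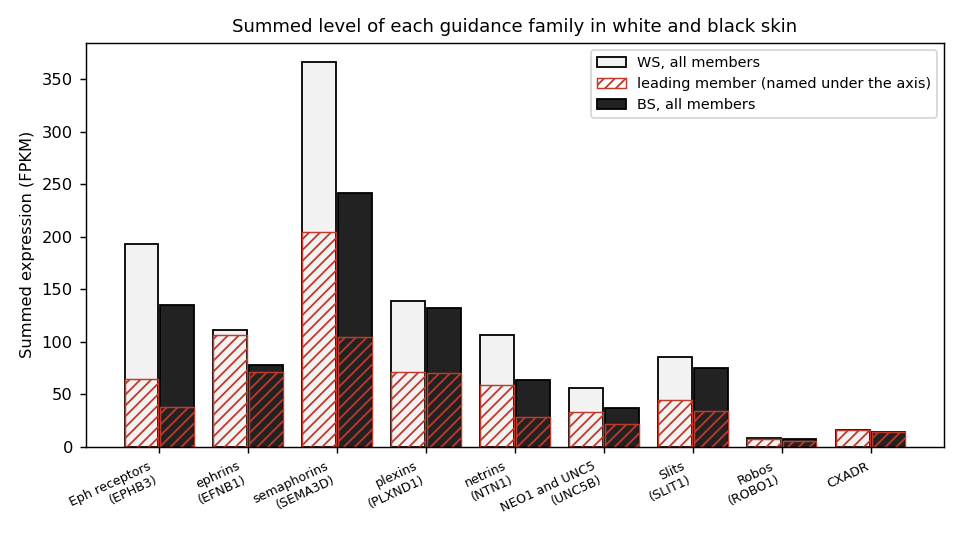
Summed FPKM of each family in WS (light bars) and BS (dark bars), with the hatched part showing the leading member named under the axis (*UNC50* is left out). The sums of semaphorins are 366.7 FPKM in WS against 241.6 in BS, of which *SEMA3D* alone holds 204.5 and 104.9 FPKM. The median log2 fold change of the semaphorins is 0.08. The sums of netrins are 107.0 and 63.5 FPKM, while those of plexins are 139.4 and 131.9 FPKM.

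Slits and Robo receptors, the repellent pair that keeps axons and early neural crest cells away from the wrong path, were close between the libraries. *SLIT3* was at 31.8 FPKM in WS against 32.0 in BS, and *SLIT2* at 9.39 FPKM and 9.14 FPKM. *SLIT1*, known from the nervous system, was the most abundant at 44.5 FPKM in WS against 34.2 in BS (-0.37). Of their receptors, *ROBO1* was at 7.19 FPKM and 5.56 FPKM (-0.32), and *ROBO2* at 0.551 FPKM and 0.621 FPKM. *ROBO3* was at 0.308 FPKM in WS against 0.916 in BS, both too low for the filter. *CXADR*, an adhesion protein of the immunoglobulin superfamily at epithelial junctions, had 16.3 FPKM in WS against 14.4 in BS (-0.17).

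**Figure D4:**
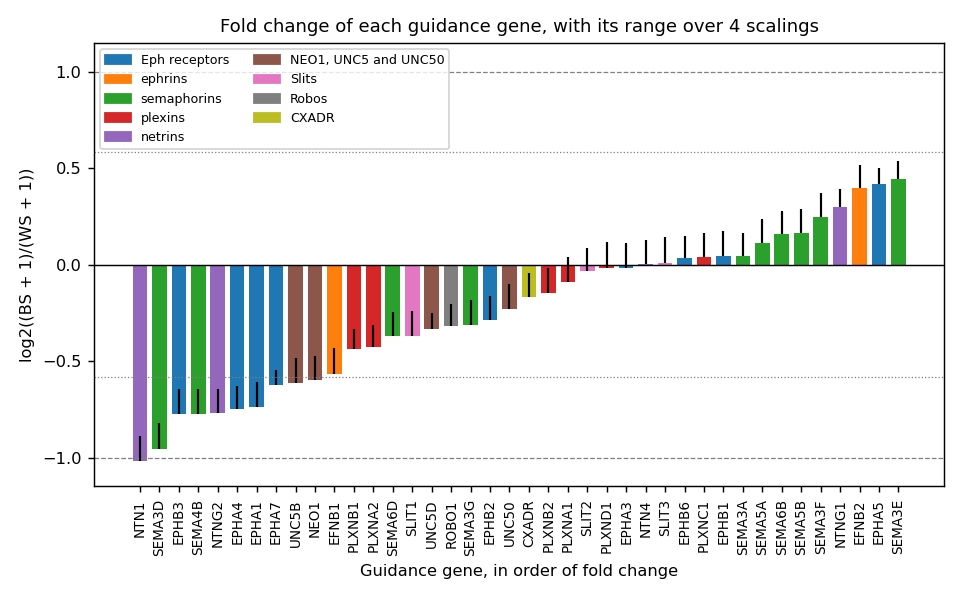
Log2 fold change (BS over WS, pseudocount of 1) of the 40 guidance genes in order, colored by family, with a black line for its range over the deposited FPKM and 3 other scalings of the libraries. Dotted and dashed lines mark 1.5-fold and 2-fold: *NTN1* (-1.02) is at the left, *SEMA3E* (0.44) at the right, and *EPHA7*, *UNC5B* and *NEO1* cross the dotted line.

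Co-receptors and other cues, a list of 26 genes, went both ways. Of 18 with at least 1 FPKM, 4 were lower in BS by 1.5-fold or more (22.2%, beside 8.07% of all symbols) and 2 were higher (11.1%, beside 8.44%), with a median of 0.13. *RGMA*, a membrane-anchored ligand of neogenin, was at 139.4 FPKM in WS against 72.6 in BS (-0.93). *CHL1*, an adhesion protein that joins neuropilin-1 in the response to semaphorin 3A, was at 121 FPKM and 65.2 FPKM (-0.88). *GPC1*, a heparan sulfate proteoglycan that binds Slits, was at 114 FPKM and 120 FPKM. After their values were seen, 5 more were chosen to be named: *FLRT3*, *LRIG1*, *NRP1*, *NRP2* and *CXCR4*. *FLRT3*, a ligand of UNC5 receptors, was at 75.8 FPKM in WS against 37.9 in BS (-0.98), and *LRIG1*, a restraint on growth factor receptors, at 60.2 FPKM and 33.6 FPKM (-0.82).

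The neuropilins, the binding receptors of class 3 semaphorins, were higher in BS, whereas *SEMA3D* was lower. This contrast does not extend to the class. Of 5 class 3 semaphorins above 1 FPKM, 3 were higher by any margin, including the locus named *SEMA3F*, whose name is uncertain. The other 2 were lower (40%, beside 54.6% of all symbols), and the median was 0.04. *NRP1* stood at 40.0 FPKM in WS against 59.9 in BS (0.57, just short of 1.5-fold), and *NRP2* at 20.0 FPKM and 32.6 FPKM (0.68). *CXCR4*, the chemokine receptor of *CXCL12*, was at 5.87 FPKM and 10.1 FPKM (0.70).

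Downstream of the receptors, the genes of cytoskeletal signaling went both ways. Of 50 genes above 1 FPKM from a list of 61, 5 were lower in BS by 1.5-fold or more (10%, near the 8.07% of all symbols). Of these 5, 1 was at least 2-fold lower (2% of the 50, near the 2.22% of all symbols). By 1.5-fold or more 2 were higher (4.0%, beside 8.44%), and the median was 0.05. The most abundant were the small GTPases *RHOA* (503 FPKM in WS, 659 FPKM in BS), *RAC1* (265 FPKM and 225 FPKM) and *CDC42* (167 FPKM and 192 FPKM), none of them 1.5-fold apart.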

How the data were processed

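RNA-Seq of 2 pooled libraries was used. The authors deposited expression in FPKM for 22853 loci. Cuffdiff and galGal4 are listed in the submitters' notes on processing, and Bowtie in the methods. The deposited tables hold no read counts per locus, and counting error was not estimated. Loci marked as failed (5) were left out. The authors' fold changes, test statistics, p and q values were not used, nor was the second deposited table, which repeats the FPKM of a subset of loci.

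Rows without a symbol, with merged names, identifiers, microRNA names or dates were not counted as gene symbols. Fold changes used a pseudocount of 1 FPKM and at least 1 FPKM in the higher library. Calls at 2-fold and 1.5-fold are rules of size. The guidance genes and lists were chosen with earlier results of these data known. Any of the 51 genes could be named, and values were always given for the 3 most abundant of each family, those differing by 1.5-fold or more, those next to a threshold and those at 0. In the lists of co-receptors and signaling, the 3 most abundant genes and those 2-fold apart were to be named, and the 1 signaling gene past 2-fold is not reported here. RefSeq gene names of GRCg7b matched 49 of 51 symbols and served for names only. Lists of markers for muscle, fibroblasts, blood and leukocytes were also counted. Alternatives were pseudocounts of 0.1 and 5, no filter or 5 FPKM, 3 scalings and sums over loci. The counting was tested on simulated data. Python 3.11.15, pandas 2.3.3, numpy 2.4.6 and matplotlib 3.10.9 were used.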

Additional observations from a re-analysis of the deposited data

How the results depend on the processing

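No gene called at 1.5-fold changed direction, but these settings could hardly have changed it. Pseudocounts and filters keep the sign of a fold change, and the largest scaling raised BS by a log2 of only 0.13. Summing loci could have affected only *NTN1* among the called genes. The medians of ephrins, plexins, Slits and Robo receptors, none of them called, changed sign under settings given here. The count of genes at least 2-fold lower in BS was 0 with a pseudocount of 5. It was also 0 with medians, upper quartiles or totals without the 50 most abundant loci made equal, and with loci of a symbol summed. Among all symbols the counts were 106 of 9372, 177 of 9386, 159 of 9394, 134 of 9411 and 206 of 9376, in that order. In so few guidance genes a count of 0 is near these shares. The count at least 1.5-fold lower was 6 of 40 with a pseudocount of 5, beside 468 of 9372 symbols. The count at least 1.5-fold higher was 2 of 40 with a pseudocount of 0.1 (*EPHA5* and *SEMA3E*), beside 1025 of 9372 symbols. With equal totals without the 50 most abundant loci it was 1 of 43, beside 1133 of 9411. That scaling moved the median of all gene symbols from -0.04 to 0.09, of the guidance genes to -0.0181, Eph receptors to -0.16, ephrins to 0.0411, semaphorins to 0.20, plexins to 0.0118, Slits to 0.0866, Robo receptors to 0.21, netrins to -0.26, netrin receptors with *UNC50* to -0.17 and *CXADR* to -0.0442. Without a filter the medians were -0.0616 for the guidance genes, -0.0152 for Eph receptors, 0.0635 for Robo receptors and -0.28 for netrin receptors with *UNC50*. At 5 FPKM they were -0.51 for Eph receptors, -0.77 for netrins and -0.60 for netrin receptors with *UNC50*. With a pseudocount of 5 they were -0.21 for Robo receptors and -0.34 for netrin receptors with *UNC50*. The filters, the summing and the scaling without the 50 most abundant loci change which genes or loci enter. Under that scaling 43 guidance genes passed the filter in place of 40, so its medians cover a different set. Other causes were not tested. No paired analysis was possible because each color has 1 library, which also leaves the variation between birds unknown. Counting error was not estimated.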

Other observations

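Some loci carry merged names and belong to no family above. The locus of *SEMA7A* and *UBL7* was at 41.2 FPKM in WS against 36.4 in BS, and that of *PLXNA4B* with an unnamed gene at 1.25 FPKM and 2.05 FPKM. Their values cannot be divided between the merged genes.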
